A study of Homo sapiens with 12 samples.

Results

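Mitochondrial fusion and fission genes were followed in HepG2 cells, a human hepatocellular carcinoma line, in which thiosulfate sulfurtransferase (TST), a mitochondrial enzyme that converts cyanide to thiocyanate, was silenced or overexpressed. The genes were the 8 that carry the symbols MFN1, MFN2, OPA1, DNM1L, FIS1, MFF, OMA1 and YME1L1, matched to the Ensembl identifiers of the 57500 genes counted in each library. The rule was a list of symbols, drawn up with earlier results of these data known. RNA was sequenced from 12 libraries in 3 groups of 4 replicates, namely wild-type controls (WT), a line in which TST was silenced (shTST) and a line that overexpressed it (overTST). Both engineered lines were made by lentiviral transduction and blasticidin selection, shTST with a plasmid for a short hairpin RNA and overTST with a codon-optimised TST sequence behind a CMV promoter. Whether WT cells carried an empty vector or a control hairpin, and whether either line was a clone, was not stated in the sources used here. All 3 groups were kept in ordinary culture medium with 400 µM glycine for 24 h before RNA was extracted, and replicates were described as independent.

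Mitochondria form a network that is joined by fusion and divided by fission. The mitofusins MFN1 and MFN2 join outer membranes and OPA1 joins inner membranes, while DNM1L (also called DRP1) is a cytosolic GTPase that constricts the organelle once it has been recruited to the outer membrane by receptors such as MFF. OMA1 and YME1L1 are inner membrane proteases that cleave OPA1 at different sites, and cleavage by OMA1, which stress activates, limits fusion. Much of this control acts on proteins: counts per gene do not see the splice or cleavage forms of OPA1, the phosphorylation of DNM1L or the ubiquitination of the mitofusins. In liver cells, as in others, the shape of the network moves with nutrient supply and respiration.

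The genes lie on 6 chromosomes of GRCh38, and each is given here by the whole span that the files list, introns and UTRs included. MFN1 (ENSG00000171109) is at chr3:179347692-179394931, MFN2 (ENSG00000116688) at chr1:11980181-12013514 and OPA1 (ENSG00000198836) at chr3:193593144-193697823, all on the plus strand. DNM1L (ENSG00000087470) is at chr12:32679200-32745650 and MFF (ENSG00000168958) at chr2:227325151-227357836, also on the plus strand. FIS1 (ENSG00000214253) is at chr7:101239458-101252316, OMA1 (ENSG00000162600) at chr1:58415384-58546802 and YME1L1 (ENSG00000136758) at chr10:27110112-27155266, on the minus strand. Reads were summed over all exons of a gene, whose joint length ran from 1795 bases for FIS1, the shortest, to 8448 bases for OPA1.

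The 250 bases before the start of transcription are shown for MFN1, MFN2, MFF (the first of its 3 listed starts) and FIS1, the genes that changed with TST overexpression. They are written 5′ to 3′ in the direction of the gene and come from RefSeq (GRCh38.p14). These starts differ from those of the spans given above: the FIS1 and MFN2 stretches lie inside the spans, and the MFN1 and MFF stretches overlap them in part. Capitals mark matches, on either strand, to the ETS letters CCGGAAG and the SP letters GGGCGG.
MFN1 (chr3:179347459-179347708, plus strand): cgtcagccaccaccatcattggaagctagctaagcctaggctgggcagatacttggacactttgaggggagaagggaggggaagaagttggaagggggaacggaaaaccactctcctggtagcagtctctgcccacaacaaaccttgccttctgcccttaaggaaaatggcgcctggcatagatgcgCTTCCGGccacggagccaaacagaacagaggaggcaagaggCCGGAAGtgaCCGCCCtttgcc
MFN2 (chr1:11980194-11980443, plus strand): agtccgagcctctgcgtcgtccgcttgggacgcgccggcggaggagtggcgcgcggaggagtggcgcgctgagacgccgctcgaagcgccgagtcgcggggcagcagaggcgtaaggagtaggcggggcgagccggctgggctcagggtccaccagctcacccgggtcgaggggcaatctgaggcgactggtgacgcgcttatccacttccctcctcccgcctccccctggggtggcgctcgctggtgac
MFF (chr2:227325001-227325250, plus strand): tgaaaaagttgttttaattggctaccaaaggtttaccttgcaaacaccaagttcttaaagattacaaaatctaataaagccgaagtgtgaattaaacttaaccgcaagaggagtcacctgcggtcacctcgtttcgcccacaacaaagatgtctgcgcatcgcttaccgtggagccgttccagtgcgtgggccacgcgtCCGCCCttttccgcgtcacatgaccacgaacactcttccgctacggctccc
FIS1 (chr7:101245082-101245331, minus strand): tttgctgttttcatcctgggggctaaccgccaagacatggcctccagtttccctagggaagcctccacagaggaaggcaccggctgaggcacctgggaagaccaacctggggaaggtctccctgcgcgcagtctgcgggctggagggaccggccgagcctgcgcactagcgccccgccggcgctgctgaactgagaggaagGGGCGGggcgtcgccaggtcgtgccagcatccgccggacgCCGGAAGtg
The promoters of both mitofusins differed in these letters. MFN1 held 2 ETS matches, at positions -63 and -22 from the start of transcription, and 1 SP match, while MFN2 held no match to any of 6 motifs searched although 72.4% of its bases were G or C. FIS1 held 1 ETS match at position -9 and 2 SP matches, at -49 and at 6, which is past the bases shown. MFF held only an SP match. ETS letters occurred in 10.3% and SP letters in 45.0% of all 35116 RefSeq promoters, each searched from 250 bases before to 50 after the start. The NRF1 letters GCGCATGCG, present in 1.92% of promoters, were found in OPA1 alone among the 7 genes that had an entry, as 2 overlapping matches on opposite strands at positions -94 and -93. The ERR site AAGGTCA (3.92% of promoters), the ATF4 composite TGATGNAAT (0.991%) and the E-box CACGTG (7.26%) were in none of the 9 promoters of these 7 genes. SP matches were also found in OPA1, OMA1 and DNM1L, and YME1L1 had no entry. A match of letters is a description of the reference sequence and no measure of binding.

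Libraries held 22911380 to 45120508 counts on genes, WT the most and overTST the fewest, and the 8 genes together took 0.0526% to 0.0609% of them. Mitochondrially encoded genes took 6.91% to 11.98% of counts in WT, 6.84% to 8.65% in shTST and 10.8% to 11.7% in overTST. The 9 hepatocyte markers, among them ALB and HNF4A, summed to 21721 to 28945 CPM (counts scaled to the TMM-normalized library size) in every library. The 6 fibroblast markers summed to 15.9 to 25.2 CPM. The 5 endothelial markers summed to 1.84 to 3.91 CPM and the 5 blood markers to 5.25 to 8.30 CPM. Of these markers only LUM, KDR and HBB were at 0 in every library. CD14, at 4.11 to 6.09 CPM, made most of the blood sum. The fibroblast sum was 21.6 to 25.2 in WT and 15.9 to 19.4 in both engineered lines, nearly all of it PDGFRB (20.1 to 23.6 CPM in WT, 14.7 to 17.7 in the lines). The endothelial sum, mostly PECAM1, was 2.51 to 3.29 in WT, 1.84 to 2.16 in shTST and 3.40 to 3.91 in overTST, and the part of these markers in the results was not tested. Since these are bulk samples, fewer cells that express a gene and less RNA per cell cannot be told apart.

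TST itself followed the labels. It stood at 47.2, 47.5, 52.8 and 48.5 CPM in WT, at 33.0, 33.6, 36.6 and 33.5 CPM in shTST and at 51.8, 56.0, 61.6 and 62.1 CPM in overTST. All shTST libraries lay below WT (log2 fold change -0.52 ± 0.0549 SE, n = 4 against 4, edgeR quasi-likelihood adjusted p = 3.2e-06), and overTST lay above WT by 0.24 ± 0.0620 (adjusted p = 0.00384) with overlapping groups. The overexpression call was lost when the dependence on gene length described below was removed (log2 fold change 0.097, adjusted p = 0.201), and whether reads from the codon-optimised sequence were counted under TST was not tested.

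Per kilobase of the exonic length in the files, MFN2 was the most abundant of the 8 transcripts and OMA1 the least. In FPKM (CPM per kilobase of the exonic length in the files) the WT means were 34.9 ± 0.778 for MFN2, 25.4 ± 2.23 for FIS1, 21.6 ± 0.535 for YME1L1, 11.9 ± 0.773 for MFF, 8.55 ± 0.206 for DNM1L, 6.18 ± 0.261 for OPA1, 3.20 ± 0.309 for MFN1 and 1.91 ± 0.0563 for OMA1 (SD, n = 4). The highest mean was 18.3 times the lowest in WT, 17.0 times in shTST and 15.6 times in overTST. This order was the same in all 3 groups, and the ranges of neighbours in it did not overlap except those of MFN2 and FIS1 in overTST, at 29.4 ± 1.92 and 28.4 ± 1.29 FPKM. Both ends of the order depend on the length used. Per kilobase of the longest GENCODE 29 transcript, FIS1 led in WT with 45.4 FPKM and YME1L1 and MFN2 followed with 38.4 and 38.2. By that length OMA1 (3.24 to 3.45 FPKM) and MFN1 (3.34 to 4.11) overlapped in WT. In overTST the MFN1 mean, 3.15 FPKM, was below the OMA1 mean, 3.33. Genes that do like work differed widely in level: the ratio of MFN2 to MFN1 was 9.28 to 11.9 over the 12 libraries, that of the protease YME1L1 to OMA1 9.22 to 14.7, and that of MFF to FIS1 0.442 to 0.489.

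**Figure D1:**
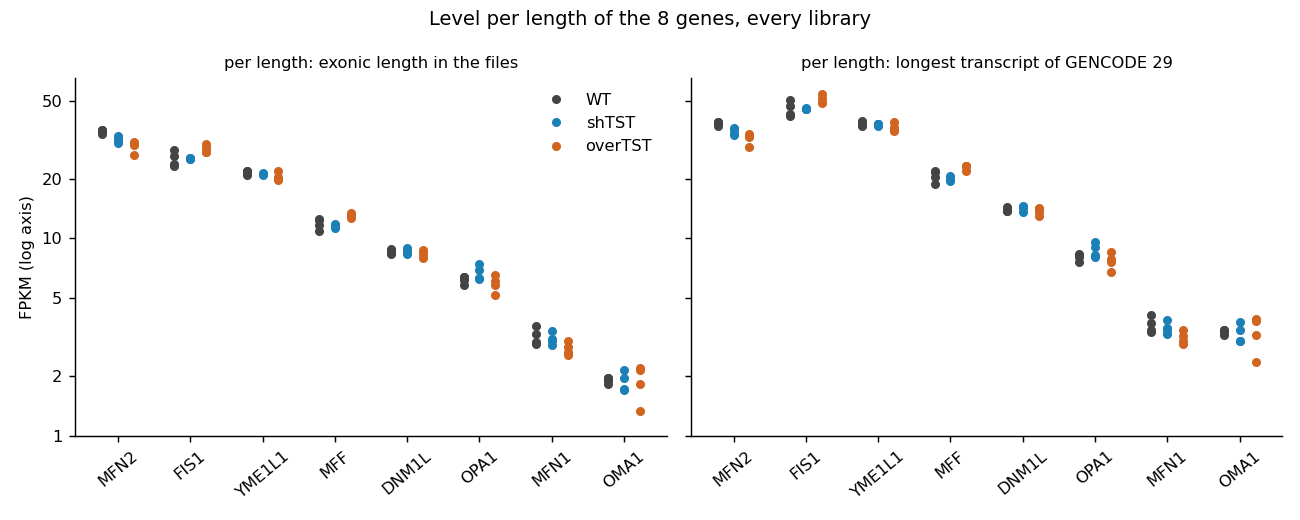
Level per length of the 8 genes in every library, in FPKM on a log axis, with the exonic length in the files (left) and with the longest GENCODE 29 transcript (right). Grey points are WT, blue shTST and orange overTST. MFN2 leads on the left at 26.6 to 35.5 FPKM and OMA1 is lowest at 1.34 to 2.21, while FIS1 leads on the right. The ranges of OMA1 and MFN1 overlap on the right.

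The first question was whether silencing TST changed these genes, and 1 of the 8, MFN2, fell. The other 7, among them every fission gene, did not pass the test, and their log2 fold changes lay between -0.056 and 0.12. Of 14584 genes tested, 16.1% passed at an edgeR adjusted p of 0.05, 6.69% higher and 9.40% lower in shTST (975 against 1371 genes; 1284 against 1151 when libraries were scaled by their upper quartile), so the share among the 8 genes, 12.5%, was near that of all genes. The median log2 fold change was -0.022 over the 8 genes and 0.0040 over all genes tested.

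The second question was whether overexpressing TST did, and 4 of the 8 changed: MFN1 and MFN2, which join outer membranes, fell, and FIS1 and MFF, which act in fission, rose. OPA1, both OPA1 proteases and DNM1L did not pass the test. Of 14421 genes tested 33.9% passed, 15.7% higher and 18.2% lower (2265 against 2628 genes; 2700 against 2292 with upper-quartile scaling), against 2 higher and 2 lower among the 8 genes. The median log2 fold change was -0.047 over the 8 genes and 0.0019 over all genes.

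In the direct comparison of both engineered lines, fitted with all 12 libraries, 3 of the 8 differed: OPA1 was higher, and FIS1 and MFF were lower, in shTST than in overTST. Of 14883 genes 33.0% passed, 16.9% higher and 16.1% lower in shTST (2512 against 2395 genes; 2389 against 2519 with upper-quartile scaling and 1928 against 2214 with length correction). Both comparisons with WT use the same 4 WT libraries, and the direct comparison uses the libraries of both lines again, so the 3 sets of values are not independent. At an unadjusted p of 0.05, 4404, 6221 and 6254 genes passed in the 3 comparisons in the order given.

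MFN2, the mitofusin that also tethers mitochondria to the endoplasmic reticulum, was the one gene that passed against WT in both lines. It stood at 173, 176, 168 and 176 CPM in WT, at 156, 165, 152 and 163 CPM in shTST and at 149, 154, 149 and 132 CPM in overTST. All WT libraries lay above all libraries of either line, whereas the ranges of shTST and overTST overlapped. The log2 fold change was -0.13 ± 0.0420 (SE) in shTST (edgeR adjusted p = 0.0422) and -0.25 ± 0.0510 in overTST (adjusted p = 5.7e-04), a fall in mean level from 174 ± 3.87 to 159 ± 5.99 and 146 ± 9.54 CPM (SD, n = 4). Directly, shTST was 0.12 ± 0.0477 above overTST, which did not pass (adjusted p = 0.0521, 95% interval 0.023 to 0.22) but passed in 7 of 12 other ways of processing, among them DESeq2 (0.0437) and limma-voom (0.0494). The fall in overTST passed in all 12 other ways of processing and without any of the 8 libraries in turn. The fall in shTST did not pass with upper-quartile scaling (adjusted p = 0.0951), with the overTST libraries in the fit (0.0698), without mitochondrially encoded genes (0.0506) or after GC correction (0.0711). It also failed without WT replicate 1 (0.0688), 2 (0.0724) or 4 (0.134) and without shTST replicate 1 (0.132), 3 (0.137) or 4 (0.079).

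MFN1, the mitofusin that is the stronger tether of facing outer membranes, passed in overTST alone. It stood at 17.4, 21.5, 19.5 and 17.8 CPM in WT, at 20.1, 18.3, 17.2 and 18.0 in shTST and at 18.0, 15.8, 16.7 and 15.2 in overTST. WT replicate 2 was the highest and overTST replicate 4 the lowest, and the highest overTST library lay within the WT range. The log2 fold change was -0.21 ± 0.0807 in overTST (edgeR adjusted p = 0.0421) and -0.056 ± 0.0747 in shTST (adjusted p = 0.666, 95% interval -0.21 to 0.099), and shTST differed from overTST by 0.16 (adjusted p = 0.125, interval -0.0023 to 0.32). The call in overTST was lost without WT replicate 2 (log2 fold change -0.15, adjusted p = 0.172) or 3 (0.0741) and without overTST replicate 2 (0.104), 3 (0.074) or 4 (0.126), and with upper-quartile scaling (0.0687). Removing the dependence on gene length (log2 fold change -0.15, adjusted p = 0.153) or on GC content (-0.15, adjusted p = 0.141) also ended the call.

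OPA1, the dynamin-like GTPase of the inner membrane that also holds cristae junctions, passed against WT in neither line. Its level was 53.9, 52.3, 49.1 and 53.6 CPM in WT, 62.5, 58.6, 53.5 and 52.3 CPM in shTST and 55.1, 43.8, 49.2 and 51.1 CPM in overTST. The edgeR test gave a log2 fold change of 0.12 ± 0.0568 in shTST (adjusted p = 0.163, 95% interval 0.00070 to 0.24) and -0.067 ± 0.0639 in overTST (adjusted p = 0.445, interval -0.20 to 0.064). Between the lines shTST was higher by 0.19 ± 0.0646 (adjusted p = 0.0284) with overlapping ranges. That call was lost after length correction (0.086, adjusted p = 0.299) and GC correction (0.063, 0.404), and without shTST replicate 1 (0.136) or 2 (0.0756) or overTST replicate 2 (0.141) or 3 (0.0676). Against WT, its value in overTST turned to 0.050 with length correction, and in shTST it passed with the replicate block and length correction together (0.14, adjusted p = 0.0384).

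The OPA1 proteases did not pass in any comparison. YME1L1, an ATP-dependent protease, stood at 153 to 162 CPM in WT, 153 to 158 in shTST and 145 to 161 in overTST, with overlapping groups. Its log2 fold changes were -0.025 (edgeR adjusted p = 0.731, 95% interval -0.11 to 0.058) in shTST and -0.072 (adjusted p = 0.275, interval -0.17 to 0.029) in overTST. OMA1, the protease that stress activates, had the fewest reads of the 8 genes, 126 to 311 counts per library, and stood at 6.83 to 7.27 CPM in WT, 6.36 to 7.97 in shTST and 4.97 to 8.21 in overTST. Its spread in overTST was wide (coefficient of variation 21.3%, against 2.95% in WT), with replicate 3 the lowest, and its intervals were -0.22 to 0.18 in shTST and -0.27 to 0.24 in overTST (adjusted p = 0.913 and 0.936). Differences in OMA1 inside these intervals are not excluded at this depth and number of libraries, and no detection limit was computed.

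DNM1L, the GTPase that constricts mitochondria, did not pass in any comparison, and its groups overlapped. It stood at 60.9 to 64.1 CPM in WT, 60.5 to 65.0 in shTST and 58.0 to 63.5 in overTST. Its log2 fold changes were 0.021 (edgeR adjusted p = 0.799, 95% interval -0.074 to 0.12) and -0.027 (adjusted p = 0.724, interval -0.14 to 0.080) against WT, and 0.049 between the lines (adjusted p = 0.473, interval -0.049 to 0.15).

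MFF, the main receptor that recruits DNM1L to mitochondria, rose in overTST. It stood at 72.0, 66.7, 76.9 and 76.4 CPM in WT, at 71.2, 72.7, 71.3 and 69.2 CPM in shTST and at 82.3, 81.8, 77.6 and 81.6 CPM in overTST. Every overTST library lay above every library of the other groups, which overlapped each other. Against WT the log2 fold change was 0.15 ± 0.0544 in overTST (edgeR adjusted p = 0.0367) and -0.036 ± 0.0497 in shTST (adjusted p = 0.682, 95% interval -0.14 to 0.067), and shTST lay below overTST by -0.18 ± 0.0495 (adjusted p = 0.00534). The difference between the lines passed in all 12 other ways of processing and without each of 12 libraries in turn. The rise over WT passed in 11 of 12 and was lost when no low-count filter was used (adjusted p = 0.145), and it failed without WT replicate 1 (0.0802) or 2 (0.141) and without overTST replicate 1 (0.0592), 2 (0.077) or 4 (0.0774).

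FIS1, an outer membrane adaptor with a part in fission, also rose in overTST. It stood at 43.0, 41.7, 50.5 and 47.1 CPM in WT, at 45.8, 46.0, 45.5 and 45.5 CPM in shTST and at 49.3, 54.1, 49.0 and 51.5 CPM in overTST. The overTST libraries lay above all of shTST, while WT replicate 3 lay among them. The log2 fold change was 0.16 ± 0.0628 in overTST (edgeR adjusted p = 0.0466), 0.0062 ± 0.0574 in shTST (adjusted p = 0.956, 95% interval -0.11 to 0.13) and -0.16 ± 0.0578 between the lines (adjusted p = 0.0371). Against WT the call was lost without WT replicate 1 (0.138), 2 (0.156) or 4 (0.0516), without overTST replicate 2 (0.146), 3 (0.0595) or 4 (0.092), with no filter (0.131) and after GC correction, where the log2 fold change was 0.13 (0.0798). Between the lines it was lost without any one of the 4 shTST replicates (0.0637 to 0.0768) or overTST replicate 2 (0.129) or 4 (0.0767), with no filter (0.134) and after GC correction (log2 fold change -0.079, adjusted p = 0.282). After length correction the log2 fold change was 0.012 against WT (adjusted p = 0.904) and -0.021 between the lines (0.798).

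For single genes, a two-sided exact permutation test over 4 libraries against 4 cannot give less than p = 0.0286. That value was reached by MFN2 in both lines against WT, by MFF in overTST against WT and by MFF and FIS1 between the lines. With Benjamini-Hochberg adjustment over the 24 tests (8 genes in 3 comparisons) these became 0.137, so none passed by that test. The share of all genes that separate in this way is not given here. Whether the 8 genes stand out by it was therefore not tested.

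**Figure D2:**
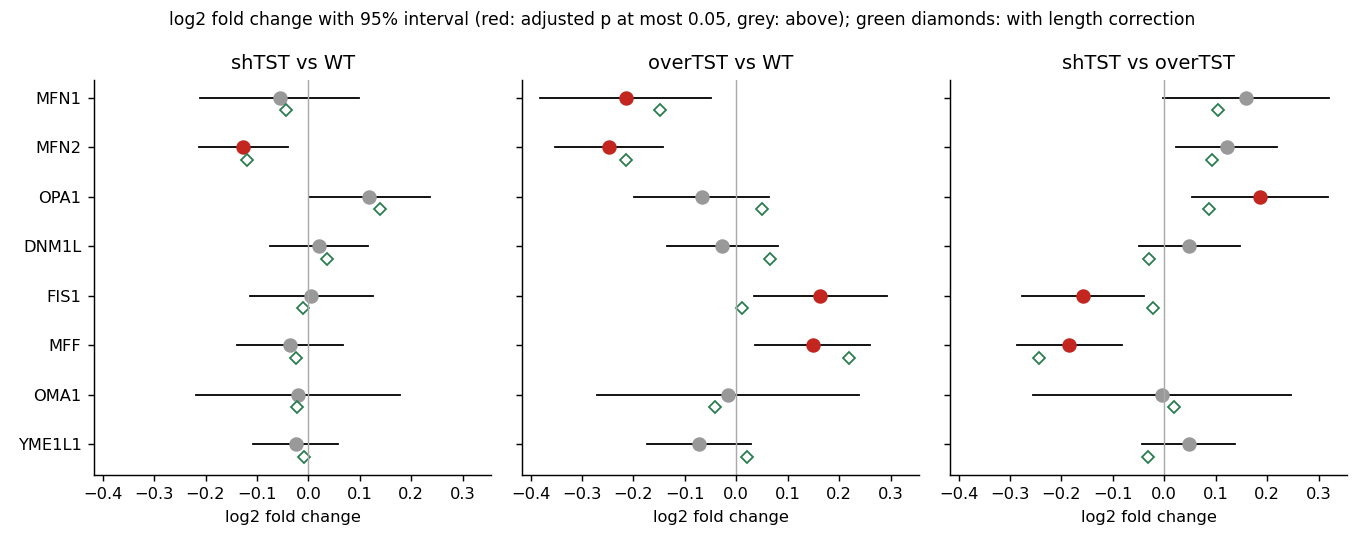
Log2 fold change of each gene (circles) with its 95% interval (lines) in the 3 comparisons, from edgeR; red circles passed at an adjusted p of 0.05 and grey ones did not. Green diamonds give the value after length correction: in overTST vs WT MFN2 (-0.21) and MFF (0.22) stay away from 0, and FIS1 (0.012) does not.

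Gene length moved with the overexpression comparison. Over all genes tested, Spearman's rho between exonic length and log2 fold change, given as a description across genes, was -0.40 in overTST, -0.090 in shTST and 0.36 between the lines. In overTST genes of 1 to 2 kb, the class of FIS1, had a median log2 fold change of 0.18, and 31.7% of them were called higher. FIS1, at 0.16, was near that median. Genes of 4 to 8 kb, the class of MFN1, MFN2, MFF, DNM1L and YME1L1, had a median of -0.052, with 10.8% called higher and 22.2% lower. MFF lay 0.20 above that median, MFN2 0.20 and MFN1 0.16 below it, and YME1L1 and DNM1L within 0.024 of it. OPA1, in the class over 8 kb, lay 0.088 above a class median of -0.16, and OMA1, in the class of 2 to 4 kb, 0.088 below one of 0.072.

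A length correction, which removed a smooth trend on length in each library, kept MFN2 (log2 fold change -0.21, edgeR adjusted p = 0.0017) and MFF (0.22, adjusted p = 0.0036) past the threshold in overTST. FIS1 fell to 0.012 and MFN1 kept a log2 fold change of -0.15, and neither passed. With a GC correction of the same kind MFN2 (-0.27) and MFF (0.23) passed again, and FIS1 (0.13) and MFN1 (-0.15) kept most of their size but did not pass. FIS1 and MFN2 had 57.4% and 53.7% G and C in their longest transcripts, and the other 6 genes 37.4% to 43.5%. In shTST, where the trend was weak, MFN2 kept its call with length correction at -0.12.

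To set fusion beside fission, the mean log2 FPKM of MFN1, MFN2 and OPA1 minus that of DNM1L, FIS1 and MFF was taken in each library, as a description with no test. It was -0.75 to -0.47 in WT (mean -0.63 ± 0.12 SD), -0.73 to -0.58 in shTST (-0.65 ± 0.062) and -0.99 to -0.81 in overTST (-0.91 ± 0.098). The overTST libraries lay below all others, and WT and shTST overlapped. The level of this difference depends on the gene length used for FPKM, while its contrast between groups does not. The fitted difference, the mean log2 fold change of the fusion genes minus that of the fission genes, was -0.27 in overTST and ranged from -0.28 to -0.20 over the 12 other ways of processing, the smallest with length correction. It was -0.019 in shTST, where leaving out single libraries moved it between -0.057 and 0.037. In the reported fit MFN1 and MFN2 on the one side and FIS1 and MFF on the other made most of the value in overTST. OPA1 and DNM1L lay at -0.067 and -0.027 there. With length correction FIS1 lay at 0.012, OPA1 at 0.050 and DNM1L at 0.065, against -0.15 for MFN1, -0.21 for MFN2 and 0.22 for MFF.

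Around these genes, 56 others of the same pathways were read in 7 lists, and their shares of calls stood beside 16.1%, 33.9% and 33.0% of all genes in the same comparisons. In shTST vs WT 10 of 56 passed (17.9%; 3 higher, 7 lower), in overTST vs WT 18 (32.1%; 9 higher, 9 lower) and between the lines 22 (39.3%; 8 higher, 14 lower in shTST). Of the 18 in overTST, 9 also passed with length correction.

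Among 16 fission adaptors and regulators, 4 passed in shTST and 5 in overTST, 1 of them higher in each. Without shTST replicate 1 the first count was 2, and without overTST replicate 4 the second was 3. With length correction the second was 4, with 2 higher and 2 lower. MTFR2, a mitochondrial fission regulator tied to proliferation, was higher in shTST (log2 fold change 0.35, edgeR adjusted p = 0.00724) and overTST (0.26, adjusted p = 0.0314), the latter lost with length correction (0.236) and without WT replicate 3 (0.0717) or 4 (0.108) or overTST replicate 1 (0.081) or 2 (0.0893). DNM2, a dynamin of the plasma membrane, fell in shTST (-0.21, adjusted p = 0.00377) and was lower there than in overTST (-0.28, adjusted p = 6.1e-05). In overTST against WT DNM2 did not pass (0.071, adjusted p = 0.284) but was higher with length correction (0.26, adjusted p = 3.8e-04). MUL1, an outer membrane E3 ligase that ubiquitinates MFN2 and SUMOylates DNM1L, fell in both lines, by 0.18 in shTST (adjusted p = 0.0106; 0.0532 without shTST replicate 1) and by 0.25 in overTST (adjusted p = 8.1e-04; log2 fold change -0.36 with length correction). GDAP1, an outer membrane protein whose loss causes neuropathy, was the largest of the 4 higher in shTST than in overTST (0.32, adjusted p = 0.00188), and 3 were lower.

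Among 10 fusion partners and regulators, 1 passed in shTST, 2 in overTST and 4 between the lines (1 higher, 3 lower in shTST). The count between the lines was 1 with length correction and 2 without shTST replicate 1 or 2 or overTST replicate 2. The count in overTST was 1 without WT replicate 2 or overTST replicate 4, and 4 without overTST replicate 1 or with upper-quartile scaling. HUWE1, an E3 ligase that targets MFN2, fell in both lines, by 0.19 in shTST (edgeR adjusted p = 0.0112; 0.0593 without shTST replicate 1) and by 0.42 in overTST (adjusted p = 6.3e-06; log2 fold change -0.21 with length correction). The difference between the lines, 0.23 (adjusted p = 0.00173), did not pass with length correction (0.462). PHB2, a prohibitin that scaffolds inner membrane proteases, rose in overTST by 0.14 (adjusted p = 0.0181), which length correction ended (0.507). It also failed without WT replicate 2 (0.0543) or overTST replicate 3 (0.0562) or 4 (0.0577). PLD6, which makes phosphatidic acid on the outer membrane, was lower in shTST than in overTST (-0.22, adjusted p = 0.0263; 0.188 with length correction), and that call was lost without shTST replicate 1 (0.0936) or 2 (0.091) or overTST replicate 2 (0.066) or 3 (0.120).

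The list of 6 other mitochondrial proteases held the inner membrane proteases PARL, AFG3L2 and SPG7, of which 0 passed against WT by the edgeR test, and HTRA2, LONP1 and CLPP, which act in the intermembrane space or the matrix. LONP1, the matrix protease Lon, fell in shTST (-0.17, edgeR adjusted p = 0.00738), a call that GC correction ended (-0.084, adjusted p = 0.129), and CLPP, the matrix peptidase ClpP, rose in overTST (0.25, adjusted p = 0.00111; 0.0561 with length correction). These were the lone calls against WT in that list, and the count in overTST was 2 without WT replicate 3 or overTST replicate 1. Between the lines 3 passed: CLPP was lower in shTST (-0.35, adjusted p = 3.1e-05), AFG3L2, an m-AAA protease subunit, was higher (0.15, adjusted p = 0.0123; 0.159 with length correction), and 1 other was lower.

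Of 5 substrates of OMA1 and YME1L1, 0 passed in shTST, and 2 passed in overTST by the edgeR test. ROMO1, a small inner membrane protein, rose by 0.28 (adjusted p = 0.00322; 0.233 with length correction), and STARD7, a phosphatidylcholine carrier, fell by 0.16 (adjusted p = 0.0137; 0.0189 with length correction). STARD7 lost its call without WT replicate 1 (0.0664) or overTST replicate 4 (0.0635). Between the lines 3 passed, with STARD7 higher in shTST (0.25, adjusted p = 1.7e-04) and ROMO1 lower (-0.23, adjusted p = 0.0103; 0.253 with length correction and 0.0505 without overTST replicate 4). Among 4 genes of the relay from OMA1 to ATF4, the kinase EIF2AK1 (HRI) rose in shTST (0.14, adjusted p = 0.0276), a call lost without WT replicate 2 (0.0826) or shTST replicate 2 (0.0837) or 4 (0.0656). None passed in overTST, and the transcription factor ATF4 was lower in shTST than in overTST (-0.22, adjusted p = 0.0158; 0.128 with length correction). Without shTST replicate 2 or 4 or overTST replicate 3 or 4 the adjusted p of ATF4 was 0.0644 to 0.0988.

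The cristae organising system (MICOS and its partners) shapes the membranes that OPA1 holds together. In overTST its 11 genes had a median log2 fold change of 0.17, and 5 rose and 0 fell (15.7% and 18.2% of all genes). The count was 3 with no filter and without WT replicate 2 or 3 or overTST replicate 3 or 4. With length correction 4 rose and the median was 0.084; CHCHD6 and MTX2 lost their calls and SAMM50 gained one (named for this after their values were seen). MICOS13 (0.35, edgeR adjusted p = 8.5e-04) and MICOS10 (0.34, adjusted p = 2.8e-04), 2 of the subunits, passed with and without that correction. The subunits IMMT (-0.0018, adjusted p = 0.982) and CHCHD3 (0.018, adjusted p = 0.828) did not pass (also named after their values were seen). In shTST MICOS10 alone rose (0.20, adjusted p = 0.0304), a call lost without WT replicate 2 (0.0825) or 4 (0.0534) or shTST replicate 1 (0.0704) or 2 (0.101). Between the lines 3 were lower in shTST, led by MICOS13 (-0.41, adjusted p = 3.0e-04) and MTX1, a metaxin of the outer membrane (-0.26, adjusted p = 5.7e-04). The number called in either direction was 5 without overTST replicate 1 and 6 with GC correction. With that GC correction DNAJC11 (named after its values were seen) was higher in shTST (0.125, adjusted p = 0.0448).

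Of 5 genes of mitochondrial transport along microtubules, 2 fell in shTST (9.40% of all genes) and 3 in overTST (18.2%). In the same edgeR tests 0 rose in either line (6.69% and 15.7% of all genes). The count that fell in shTST was 1 without shTST replicate 1 and with GC correction. With length correction 2 fell in overTST, where TRAK1 (named after its values were seen) went from -0.20 to -0.042, and the median of the list went from -0.20 to -0.042. RHOT1 (Miro1), the outer membrane GTPase that links mitochondria to motors and binds mitofusins, fell by 0.27 in shTST (edgeR adjusted p = 0.00785) and by 0.46 in overTST (adjusted p = 1.3e-04; log2 fold change -0.38 with length correction). It passed in all 12 other ways of processing and without each library in turn in both comparisons. RHOT2 (Miro2) fell by 0.17 in shTST (adjusted p = 0.0143; 0.0748 without shTST replicate 1), and with GC correction the log2 fold change was -0.063 (adjusted p = 0.270). The kinesin KIF5B fell by 0.22 in overTST (adjusted p = 0.00277) and was the 1 gene of the list that differed between the lines (0.19 higher in shTST, adjusted p = 0.00768), a call that GC correction ended (0.070, adjusted p = 0.231). Without overTST replicate 4 the count between the lines was 2.

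Genes nearest to each of the 8 in profile were found by the root mean square difference of log2 CPM over 12 libraries, each profile centred on its own mean. They were SVIL-AS1 (0.0322) and DENR (0.0334) for MFN2, RFK (0.0584) and CUL3 (0.0604) for MFN1, and EXOC6 (0.0438) and FIG4 (0.0538) for OPA1. For the fission genes they were PPP2CA (0.0351) and ILF2 (0.0388) for DNM1L, DDX19B (0.0335) and YWHAB (0.0402) for MFF, and CUTA (0.0339) and ATP5MC3 (0.0380) for FIS1. ABCF2 (0.0232) and GMPS (0.0296) were nearest to YME1L1. OXSM (0.126) and PLEKHG4 (0.128) were nearest to OMA1, the gene with the fewest counts. The 8 genes' own SD over the 12 libraries was 0.0466 (DNM1L) to 0.193 (OMA1) on the same scale.

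Some of the 8 genes overlap others in the annotation. YME1L1 shares 443 exonic bases (6.04% of its length) with MASTL on the other strand, which had 413 to 715 counts per library, and the strand setting of the counting was not given in the sources used here. OMA1 shares 257 bases (6.91%) with DAB1 on the same strand (0 to 6 counts), MFF 48 with MFF-DT (12 to 38 counts), OPA1 84 with OPA1-AS1 (0 to 3 counts) and DNM1L 202 with ENSG00000275854 (0 to 9 counts). DNM1L also spans YARS2 (745 to 1535 counts) with no exonic base in common. The mitofusins and FIS1 overlap no other gene's exons. The pseudogenes MFFP1 to MFFP3, MFN1P1 and YME1L1P1 had 0 to 4 counts.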

How the data were processed

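HepG2 RNA was sequenced in 12 libraries, 4 each of WT, shTST and overTST. The authors deposited 1 file a library with raw read counts and exonic lengths of Ensembl genes. The submitters' processing notes name Trimmomatic 0.36, STAR 2.5.2b, featureCounts of Subread 1.5.2 and GRCh38; the use of strand was not given in the sources used here. Sample labels gave groups and replicate numbers, and a name table gave symbols for 56410 of 57500 identifiers.

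Genes passing edgeR's filterByExpr were scaled by TMM and tested by quasi-likelihood in edgeR, with Benjamini-Hochberg adjustment over all genes tested and calls at 0.05. Each line was fitted with WT on 8 libraries, and both lines were compared in a fit of 12. A standard error is the log2 fold change over the square root of F. FPKM was CPM per kilobase of exonic length. Nearest profiles used log2 CPM with a prior count of 2 over the 14883 genes of the 12-library fit. The paper's statistics define replicates as experiments on different days, and none of the 18 pairs of replicates within a group was a copy (chi-square per gene 3.58 to 35.3). Depth was 22911380 to 45120508 counts per library, and intervals rest on the spread between libraries.

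Alternatives were DESeq2, limma-voom, RLE and upper-quartile scaling, no filter, over 1 CPM in 4 or more libraries, the other set of libraries in the fit, no mitochondrially encoded genes, replicate number as a block, lowess corrections (span 0.3) for exonic length (also with the block) or GC content of the longest GENCODE 29 transcript, and leaving out each replicate. The fits were tested on simulated data. Analyses ran in R 4.3.3 (limma 3.58.1, DESeq2 1.42.0, edgeR 4.0.16) and Python 3.11.15 (scipy 1.17.1, matplotlib 3.10.9). The 8 genes and the lists were chosen with earlier results of these data known. Named were the 8 genes, TST, in each list and comparison the 2 called genes with the largest change, the 2 nearest profiles of each gene, and genes that overlap the 8.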

Additional observations from a re-analysis of the deposited data

Results flagged for a closer look

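MFF in overTST replicate 3 stood at 77.6 CPM, apart from the other 3 overTST libraries at 81.6 to 82.3 CPM. Its gap to the nearest library was 0.851 of the range of the group, above Dixon's 95% limit for 4 samples. It still lay above every WT and shTST library, and it was 1 of 24 groups examined (8 genes in 3 groups), of which chance sets apart about 1 in 20.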

How the results depend on the processing

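Of 512 refits of single genes (8 genes, 3 comparisons, every alternative and left-out library), 412 kept direction and side of the threshold, 52 lost a call, 12 gained one and 36 changed sign; none of the 36 had passed in the reported fit, and the lowest adjusted p (edgeR, DESeq2 or limma-voom) among them was 0.249. Of the 8 genes, 1 was called in shTST vs WT. That number was 0 with upper-quartile scaling, with all 12 libraries, without mitochondrially encoded genes and with GC correction, 2 with the replicate block and length correction together, and 0 to 1 when single libraries were left out. In overTST vs WT 4 were called, and 2 with no filter, with length correction, with both block and length correction and with GC correction, and 1 to 3 without single libraries. Between the lines 3 were called, 1 with length correction with or without the block, and 1 to 4 without single libraries. All genes called in shTST vs WT were 2346, and 1513 to 2336 without single libraries, lowest without shTST replicate 1.

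Signs turned as follows, as log2 fold changes. In shTST vs WT MFN1 ranged from -0.097 to 0.010 over left-out libraries, DNM1L was -0.021 with GC correction, FIS1 was -0.0047 with no filter, -0.011 with length correction, -0.010 with block and length correction and -0.036 to 0.061 over left-out libraries, and OMA1 was 0.00067 with upper-quartile scaling and -0.085 to 0.026 over left-out libraries. In overTST vs WT, with length correction, with block and length correction and with GC correction in that order, OPA1 was 0.050, 0.046 and 0.0078 and DNM1L 0.065, 0.066 and 0.032. YME1L1 was 0.022 and 0.021 with the first 2 of these, and OMA1 was 0.011 with upper-quartile scaling, 0.020 with GC correction and -0.11 to 0.12 over left-out libraries. Between the lines DNM1L was -0.031, -0.030 and -0.056 and YME1L1 -0.033, -0.032 and -0.061 with the same 3 corrections, and OMA1 was 0.015 with limma-voom, 0.015 with no filter, 0.0036 with the replicate block, 0.019 with length correction, 0.028 with block and length correction and -0.14 to 0.087 over left-out libraries. The cause was not tested.

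Pairing of libraries by replicate number was looked for in correlations of their deviations. These were -0.053 to 0.080 (median 0.020) for same-numbered libraries of different groups. For differently numbered ones they were -0.106 to 0.078 (median -0.0038). The ranges overlapped, and the difference was not tested. The paper's reporting summary places control and treated samples of cell-based assays in every run. Whether same-numbered libraries shared a day was not stated in the sources used here and was not tested. With the replicate block 2980, 5166 and 5232 genes were called in the 3 comparisons (2346, 4893 and 4907 without it), and the block called MFN2 between the lines (adjusted p = 0.0357) and kept every other call on the 8 genes. The counts of calls in the 7 lists moved by over 1.5 times in 67 of 448 recomputations.

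Depth limits OMA1 most, with 126 to 311 counts per library, and the other genes had at least 335. The changes that passed were 0.13 to 0.25 in size on the log2 scale.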
